A study of Mus musculus with 12 samples.

Results

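The mitochondrial genome encodes a small set of respiratory chain subunits, and 9 of its protein-coding transcripts are described here in PDGFRα+ cells of mouse muscle and bone. The members were taken by gene name: mt-Nd1, mt-Nd2, mt-Nd4, mt-Nd5, mt-Cytb, mt-Co1, mt-Co2, mt-Co3 and mt-Atp6. All 9 were found in both tables, among 25655 genes in each. The tables list 13 mitochondrial protein genes in all, and the other 4 (mt-Nd3, mt-Nd4l, mt-Nd6 and mt-Atp8) are given beside the members. Mitochondrial rRNA and tRNA genes were not analysed here.

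PDGFRα is a growth factor receptor of mesenchymal stromal and progenitor cells. The series set Esr1 conditional knockout mice against controls in 12 samples, 3 in each of 4 groups, with a stated interest in estrogen receptor alpha targets that bear on bone. All knockout samples of both tissues had the genotype PDGFRα-CreER;Esr1flox/flox. Of the muscle controls, replicates 1 and 2 were PDGFRα-CreER and replicate 3 was PDGFRα-CreER;Esr1flox/+. Of the bone controls, replicate 1 was Esr1flox/flox with no Cre named, and replicates 2 and 3 were PDGFRα-CreER. The Cre is driven by the Pdgfra promoter and needs tamoxifen to act, so only cells that used this promoter at treatment could lose Esr1. Sorted muscle cells lacked CD45, CD31 and Vcam1, whereas the bone gate did not use Vcam1. The title names female mice, and the sources used here give neither age nor tamoxifen schedule. Whether replicates were separate animals is not labelled either, and the spread behind the deposited p-values may then be technical in part.

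Mitochondrial DNA is transcribed from both strands into long precursors. Most protein transcripts are released when the tRNAs between them are cut out, and they then receive short poly(A) tails. Their products sit in the inner membrane as core subunits of complexes I, III and IV, which pump protons, and of complex V, the ATP synthase, which uses the gradient. Each of these complexes also needs subunits encoded in the nucleus. The libraries read the 3′ ends of polyadenylated RNA, which need not be the annotated end of each mitochondrial gene. Whether the RNAs of all 13 genes were polyadenylated in these cells was not examined.

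The annotated 3′ ends are shown because the libraries read the ends of RNA. Whether the RNAs of these cells end where the annotation does was not examined. Each line gives the last 60 bases of the annotated transcript, 5′ to 3′, from GENCODE M21 on GRCm38, with the stop codon, or the part of it that the gene encodes, in capitals.
mt-Nd1: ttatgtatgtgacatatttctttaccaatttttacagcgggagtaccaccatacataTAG
mt-Nd2: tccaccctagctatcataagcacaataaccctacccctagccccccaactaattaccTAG
mt-Nd4: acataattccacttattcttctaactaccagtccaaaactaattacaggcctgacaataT
mt-Nd5: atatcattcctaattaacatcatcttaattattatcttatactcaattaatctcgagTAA
mt-Cytb: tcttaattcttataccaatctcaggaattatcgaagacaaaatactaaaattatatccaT
mt-Co1: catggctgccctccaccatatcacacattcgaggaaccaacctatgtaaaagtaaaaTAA
mt-Co2: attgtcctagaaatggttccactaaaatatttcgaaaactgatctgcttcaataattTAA
mt-Co3: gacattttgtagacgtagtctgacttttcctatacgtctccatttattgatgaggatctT
mt-Atp6: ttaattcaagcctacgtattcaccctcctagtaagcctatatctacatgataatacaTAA

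In 6 of the 9 transcripts the gene encoded a whole stop codon. The other 3, mt-Nd4, mt-Cytb and mt-Co3, ended in a single T, which the poly(A) tail completes to a stop codon. All 9 lie on the same strand of the mitochondrial genome, and the coordinates in the tables equal those of GRCm38 for all 13 genes. The complex I members are mt-Nd1 (2751 to 3707), mt-Nd2 (3914 to 4951), mt-Nd4 (10167 to 11544) and mt-Nd5 (11742 to 13565). The complex IV members are mt-Co1 (5328 to 6872), mt-Co2 (7013 to 7696) and mt-Co3 (8607 to 9390). The complex III member mt-Cytb spans 14145 to 15288, and the complex V member mt-Atp6 spans 7927 to 8607. Transcript lengths ran from 681 nt for mt-Atp6 to 1824 nt for mt-Nd5, and GC content from 35.6% in mt-Nd4 to 39.9% in mt-Co1.

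Several of these genes overlap, and the sources used here do not say how reads in an overlap were assigned. The shared stretch of mt-Atp8 and mt-Atp6 covers 43 bases, from 7927 to 7969, and holds the start of mt-Atp6 and the end of mt-Atp8. It is shown because it is also the annotated 3′ end of mt-Atp8. Where the RNA that carries mt-Atp8 ends in these cells was not examined.
mt-Atp8 and mt-Atp6 overlap: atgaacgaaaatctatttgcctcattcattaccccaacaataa
The genes mt-Nd4l and mt-Nd4 share 7 bases, and mt-Atp6 and mt-Co3 share 1. The last 14 bases of mt-Nd5 lie opposite the end of mt-Nd6, which is on the other strand. The sources used here do not say whether the counting used strand, so reads of mt-Nd5 and mt-Nd6 may not be told apart there. These are overlaps of the annotated genes, and an RNA that runs past its annotated end would overlap by more.

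Pieces of mitochondrial sequence are also present in the nuclear genome, and some of these copies are close to identical at the 3′ end. The last 200 bases of each member were compared with all GENCODE M21 transcripts. For 4 members, a nuclear pseudogene matched at 100% identity over 197 to 200 bases. These were mt-Co1 (Gm29216), mt-Co2 (Gm28661), mt-Co3 (Gm28437) and mt-Atp6 (Gm10925). All 4 copies lie next to each other on the minus strand of chromosome 1 of GRCm38, between 24613189 (the start of Gm28437) and 24616197 (the end of Gm29216). For mt-Nd2, mt-Nd5 and mt-Cytb the best copy was less alike, at 97.5%, 92.7% and 93.5% identity. No copy of the end of mt-Nd1 or mt-Nd4 was found among these transcripts. The pairs below contrast a member whose copy cannot be told apart with one whose copy can, over 60 aligned bases at the 3′ end, with mismatched bases in capitals.
mt-Co1: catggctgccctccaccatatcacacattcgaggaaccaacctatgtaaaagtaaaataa
Gm29216: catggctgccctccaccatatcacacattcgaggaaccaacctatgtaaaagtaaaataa
mt-Cytb: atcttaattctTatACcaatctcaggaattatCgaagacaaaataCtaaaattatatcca
Gm11410: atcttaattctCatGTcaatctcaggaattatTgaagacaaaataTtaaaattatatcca
The window of mt-Co1 held 0 mismatches and that of mt-Cytb held 5. A tag that lies within the aligned bases of mt-Co1, mt-Co2, mt-Co3 or mt-Atp6 cannot be placed by its sequence alone, so their values are uncertain to that extent. These 4 and 3 other copies on chromosome 1 were looked up by name, and 0 of the 7 names matched a gene of either table, so their levels were not analysed here.

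For levels, the comparison columns of the authors' deposited table of each tissue hold 1 value per gene: whichever of its knockout and control means is higher, called here the larger group mean. The header does not name the unit or say whether transcript length was divided out. It does not say which group was larger either, but the sign of the deposited log2 fold change points to it. By that sign it was the control for all 9 members in muscle. In bone it was the control for 5 members, and the knockout for mt-Co1, mt-Co2, mt-Co3, mt-Atp6 and the 4 globin genes. The order and shares given below for bone therefore mix the 2 groups, as do sums over all genes. Values per library are not given here, as the library columns carry codes that match no sample label, so shares per library and the spread between replicates were not computed. In bulk samples, fewer cells of a type and less RNA per cell cannot be told apart.

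The members were among the most abundant transcripts of muscle PDGFRα+ cells. In the authors' deposited table for muscle, mt-Atp6, which encodes a proton channel subunit of ATP synthase, had the highest larger group mean of the members, 13392. Only 3 of the 25655 genes stood above it. Next in the authors' deposited table were mt-Co1, the catalytic subunit of cytochrome c oxidase, at 13010 and mt-Cytb, the cytochrome of complex III, at 11263. The complex I subunit mt-Nd4 followed at 10732 in the authors' deposited table, and mt-Co2, which takes electrons from cytochrome c, at 10158. Lower levels in the authors' deposited table belonged to mt-Co3 (8071), mt-Nd1 (7181), mt-Nd2 (5493) and mt-Nd5 (2284), the last 3 being membrane subunits of complex I. All of the members except mt-Nd5, which ranked 68, were among the first 21 genes of the muscle table.

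In bone the same members stood near the top of the table, below the globin genes. The authors' deposited table for bone put mt-Co1 first among them, at a larger group mean of 7792, and 4 globin genes were the only genes above it. Below it in the authors' deposited table were mt-Co2 at 6582, mt-Atp6 at 6543, mt-Nd4 at 6279 and mt-Cytb at 5619. Then came mt-Co3 at 4015, mt-Nd1 at 3887, mt-Nd2 at 2061 and mt-Nd5 at 1283 in the authors' deposited table. The lowest 4 members were thus mt-Co3, mt-Nd1, mt-Nd2 and mt-Nd5, in that order, in both tissues. Across the 9 members the log2 levels of the 2 tables had a Pearson r of 0.966 and a Spearman rho of 0.85, as a description over genes that share a genome and a chemistry.

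Because it is not stated whether length was divided out, the order was also computed per kilobase of transcript. With reads from 3′ ends, or if length was already divided out, this division can itself distort the order. The members mt-Nd1, mt-Nd2 and mt-Nd5 kept places 7, 8 and 9 in both tissues. Per kilobase, mt-Atp6 stayed first in muscle, and mt-Co2 moved from place 5 to place 2. In bone, mt-Co2 moved to first and mt-Co1 from first to place 4. Neighbours in the order are not called different, since the spread of these levels over samples is not known.

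**Figure D1:**
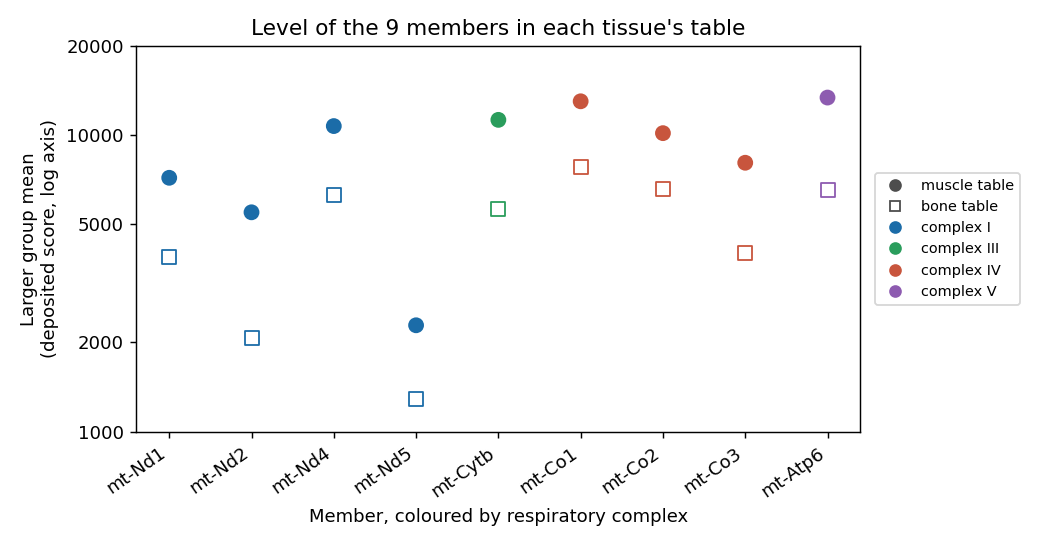
The larger group mean of each member (deposited score, log axis) is plotted for the muscle table (filled circles) and the bone table (open squares), coloured by respiratory complex. In both tables mt-Nd5 is lowest, at 2284 and 1283, and the 2 sets of values come from separate tables.

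Summed over all genes of a table, the larger group means gave the 9 members a share of 7.09% in muscle and 3.76% in bone. The 2 percentages come from separate tables and depend on what else is in each. The share of 4 globin genes in that sum was 58.4% in bone and 0.338% in muscle. With the globin genes left out of the sum, the share of the members was 7.12% in muscle and 9.04% in bone, so the order of the tissues turned. Within the members, the 3 complex IV transcripts took 38.3% in muscle and 41.7% in bone. The 4 complex I transcripts took 31.5% and 30.7%. By the sign of the fold changes, the complex IV values of bone are knockout means and its complex I values control means. The remainder went to mt-Atp6, at 16.4% and 14.9%, and mt-Cytb, at 13.8% and 12.8%.

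The cell labels were checked against markers by the same larger group mean. In muscle all 8 mesenchymal markers were above 0 and summed to 28898, with Pdgfra at 494 in the authors' deposited table. In bone all 8 were above 0 as well, but they summed to only 1765, and Pdgfra had only 8.60 in the authors' deposited table. Bone also held the summed erythroid markers at 686990 (6 of 6 above 0), the neutrophil markers at 11644 (8 of 8) and the macrophage and leukocyte markers at 1631 (6 of 6). The same lists summed to 3931 (6 of 6), 34.0 (5 of 8, with Ltf, Elane and Mpo at 0) and 89.6 (6 of 6) in muscle. Muscle fibre markers summed to 122 in muscle (7 of 7) and 15.8 in bone (4 of 7, with Ckm, Myh4 and Mb at 0). Endothelial markers summed to 37.4 in muscle (4 of 4) and 0.304 in bone (1 of 4, with Cdh5, Kdr and Tek at 0). Satellite cell markers summed to 64.0 in muscle (2 of 4, with Pax7 and Myf5 at 0) and 55.9 in bone (1 of 4, with Pax7, Myf5 and Myod1 at 0), of which Vcam1 gave 53.7 and 55.9. How much of the bone value of each member came from mesenchymal cells was not tested. The targeted gene, Esr1, had log2 fold changes of 1.02 (muscle, p = 0.404) and -2.69 (bone, p = 0.245) in the authors' deposited tables, and a 3′ tag of it need not be lost with the floxed part, so it does not check the labels.

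In muscle, no member passed the test of knockout against control, and all 9 had a negative log2 fold change. A gene was called at an authors' FDR, a p-value adjusted over genes, under 0.05. By that rule 0 of the 9 members were called, and 0.127% of the 7107 genes with an FDR were. Nor was any member under an unadjusted p of 0.05, against 6.12% of those genes. The median of the members was -0.32, where the median of all genes with an FDR was 0.03. Of all those genes 48.5% were below 0. Among the 154 nuclear genes at a level of 1000 or more, 59.7% were below 0 and the median was -0.06. These 9 values are not independent of each other, since transcripts of one genome share their precursor and their organelle.

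The lowest values in muscle were those of the complex I members mt-Nd5 and mt-Nd2, followed by mt-Co1 of complex IV. The authors' deposited table gave mt-Nd5 the lowest of the members, -0.60, or 1.51-fold lower in the knockout (p = 0.0628, FDR = 0.883). For mt-Nd2 the authors' deposited table had -0.43 (p = 0.144), for mt-Nd1 -0.36 (p = 0.193) and for mt-Nd4 -0.32 (p = 0.274). Their median was -0.39. Among the cytochrome c oxidase subunits, the authors' deposited table gave mt-Co1 -0.36 (p = 0.192), mt-Co2 -0.24 (p = 0.377) and mt-Co3 -0.10 (p = 0.733). The ATP synthase transcript mt-Atp6 had -0.27 (p = 0.309) and mt-Cytb -0.24 (p = 0.407) in the authors' deposited table. Each of these 8 members had an FDR of 1.00. The range over the members was narrow, from 1.07-fold to 1.51-fold lower, and the tables give no error for these values.

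The 4 other mitochondrial genes were also below 0 in muscle, and none passed. The one light-strand protein gene, mt-Nd6, had the lowest value of all 13, with -0.65 listed by the authors' deposited table (p = 0.0253, FDR = 0.635). It overlaps the end of mt-Nd5, the lowest of the members, by 14 bases on the opposite strand. In bone mt-Nd5 had -0.51 and mt-Nd6 0.06, and the part of shared reads was not tested. The authors' deposited table gave mt-Nd3 -0.29 (p = 0.335), mt-Nd4l -0.23 (p = 0.465) and mt-Atp8 -0.20 (p = 0.513).

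In bone, no member passed either, and the signs were mixed. By the same rule 0 of 9 members were called, where 0.0352% of the 8534 genes with an FDR were. No member had an unadjusted p under 0.05, against 40.7% of those genes. The genes under 0.05 had a median level of 7.41, and no member was below 1283. The median of the members was -0.12, and 5 of the 9 were below 0. Of all genes with an FDR 32.6% were below 0, and their median was 1.46. Among the 61 nuclear genes at a level of 1000 or more, 27.9% were below 0 and the median was 0.30.

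In bone the members of complexes I and IV had opposite signs. All 4 complex I members were below 0: the authors' deposited table gave mt-Nd5 -0.51 (p = 0.420), mt-Nd2 -0.36 (p = 0.553), mt-Nd4 -0.34 (p = 0.556) and mt-Nd1 -0.12 (p = 0.833). So was mt-Cytb, at -0.24 in the authors' deposited table (p = 0.688). All 3 complex IV members were above 0 in the authors' deposited table, with mt-Co1 at 0.27 (p = 0.628), mt-Co2 at 0.19 (p = 0.738) and mt-Co3 at 0.19 (p = 0.75). The value of mt-Atp6 was 0.02 in the authors' deposited table (p = 0.969). The FDR of the members ran from 0.651 for mt-Nd5 to 0.989 for mt-Atp6 in the authors' deposited table. The difference between complexes was not tested, because the library columns were not assigned to samples. Over all 13 annotated genes the signs were mixed within complexes, as mt-Nd6 of complex I was above 0 and mt-Atp8 of complex V was below 0. The genes mt-Atp8 and mt-Atp6 overlap on the same strand. Whether they lie on separate RNAs was not examined, so their signs are not read as those of separate transcripts. The 4 members above 0 are also the 4 whose annotated 3′ ends have an identical nuclear copy. This did not hold over all 13 genes. The ends of mt-Nd3 and mt-Nd4l also had copies at 100% identity over 197 bases, and both genes were below 0 (-0.34 and -1.31). The best copy of the end of mt-Nd6, which was above 0, had 93.5% identity. The part of the nuclear copies in the values was not tested. The median of the nuclear genes at 1000 or more was 0.30 in bone, and mt-Co1, the highest member, had 0.27. Relative to that median, 9 of the 9 members were below 0, so the positive signs depend on the reference. Of these 61 nuclear genes, 44 were above 0 and 17 below. Those above 0 included blood cell genes such as the globins, S100a8 and Lyz2.

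Of the 4 other mitochondrial genes in bone, mt-Nd4l stood apart in size, as the authors' deposited table listed -1.31 for it (p = 0.0652, FDR = 0.146). The gene mt-Nd4l did not pass, and at a level of 761 it is one of the 2 least abundant mitochondrial protein genes there. It overlaps mt-Nd4 (-0.34 in bone) on the same strand, and whether these genes lie on separate RNAs was not examined. The authors' deposited table gave mt-Nd3 -0.34 (p = 0.558), mt-Atp8 -0.31 (p = 0.694) and mt-Nd6 0.06 (p = 0.922).

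**Figure D2:**
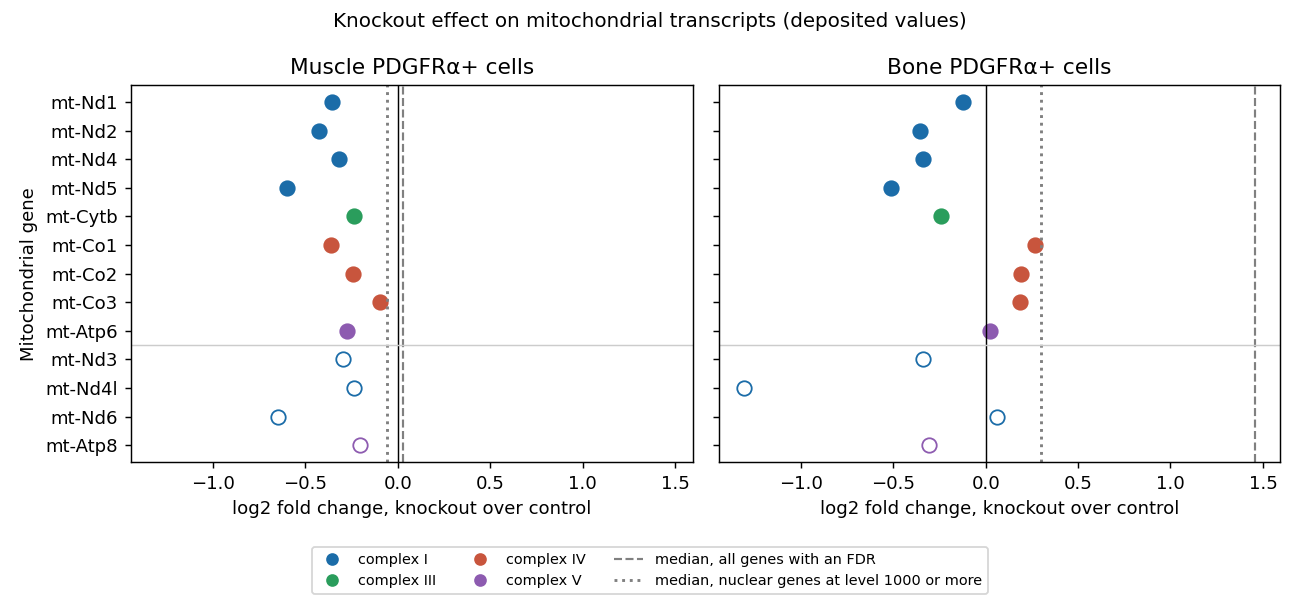
The log2 fold change of knockout over control is plotted for the 9 members (filled) and the other 4 mitochondrial protein genes (open), by tissue and coloured by complex, with lines at 0 and at the medians of all genes with an FDR and of nuclear genes at level 1000 or more. All 13 points lie below 0 in muscle, whereas in bone the 3 complex IV points, mt-Atp6 and mt-Nd6 lie above 0. No error bar is drawn because the tables give none.

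Set side by side, 7 of the 9 members had a lower value in muscle than in bone. The exceptions were mt-Nd4, at -0.32 and -0.34 in the authors' deposited tables, and mt-Cytb, at -0.24 in both. In both tissues mt-Nd5 was the lowest member and mt-Nd2 the next. Across the members the fold changes of the 2 tissues had a Pearson r of 0.665 and a Spearman rho of 0.483. Over all 13 genes these were 0.00921 and 0.0659, so the likeness rests on which genes are included. Fold change and transcript length had a Pearson r of -0.73 in muscle and -0.51 in bone over the members, and -0.38 and 0.18 over the 13 genes. All of these are descriptions over genes, which are not independent replicates.

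**Figure D3:**
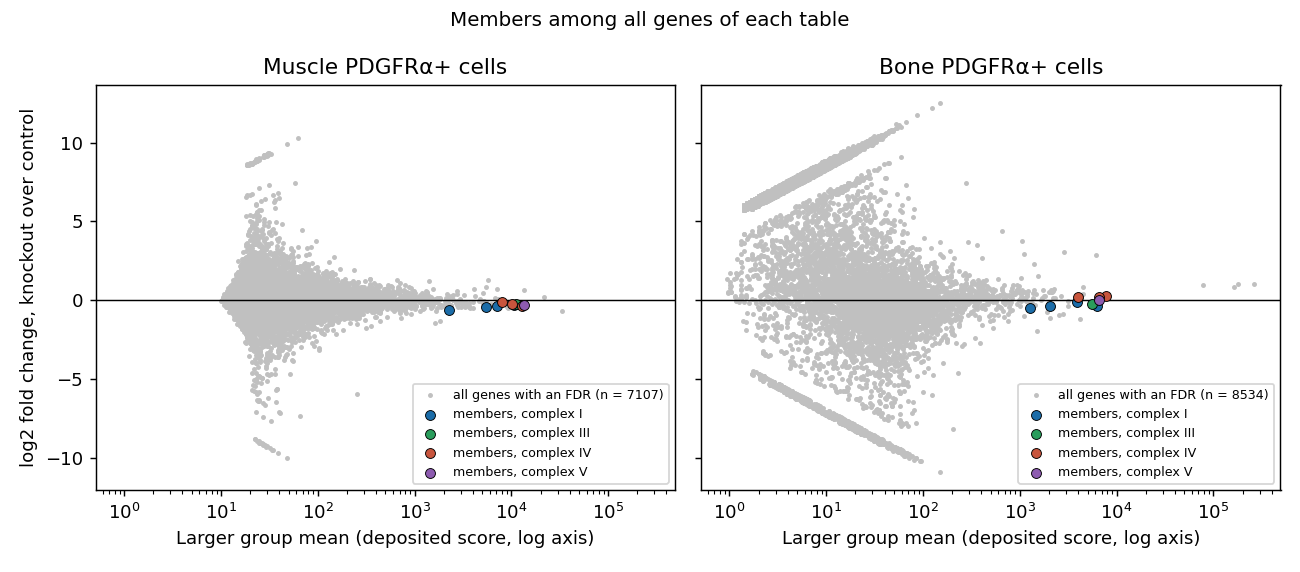
Each gene with an FDR is plotted by its larger group mean (deposited score, log axis) and log2 fold change, with the members coloured by complex. The members sit at the high end of the levels, at 1283 and above, close to 0 in fold change, while fold changes of genes at low levels spread widely and form bands in both directions.

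Nuclear subunits of the same complexes did not pass in either tissue. The list held 26 subunits, of which 25 matched a gene by name. In muscle all 25 had an FDR, 0 rose, 0 fell, and 14 were below 0, with a median of -0.10. By complex, 6 of 8 nuclear complex I subunits were below 0 (median -0.39), 3 of 6 of complex III (-0.03), 3 of 6 of complex IV (-0.0048) and 2 of 5 of complex V (0.03). The smallest p belonged to Uqcrc2, a core protein of complex III, at 1.43 in the authors' deposited table (p = 0.0962). The complex I subunit Ndufs3 had -1.37 in the authors' deposited table (p = 0.282), at a larger group mean of 41.9. The most abundant of these subunits, Cox6c and Cox7c of complex IV, had -0.17 and -0.26 in the authors' deposited table. Their levels of 1378 and 1311 were below that of every member.

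In bone, 24 of the 25 had an FDR, 0 rose, 0 fell, and 10 were below 0, with a median of 0.27. Only 1 of 7 nuclear complex I subunits with an FDR was below 0, where all 4 mitochondrially encoded members of that complex were. Of all genes with an FDR in bone, 32.6% were below 0 and the median was 1.46. The levels of these 7 nuclear subunits ran from 2.94 to 77.8, against 1283 to 6279 for the 4 members. The largest value in the authors' deposited table belonged to Ndufs3 (9.72, p = 0.00278, FDR = 0.0784), at a level of only 23.6. When a gene is this low, a fitted fold change can mean that 1 group was close to 0, and its size is then no estimate. For Cox5b, a complex IV subunit at a level of 155, the authors' deposited table gave 2.79 (p = 0.0369, FDR = 0.105). The abundant complex IV subunits Cox7c and Cox6c had -0.62 and 0.20 in the authors' deposited table.

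**Figure D4:**
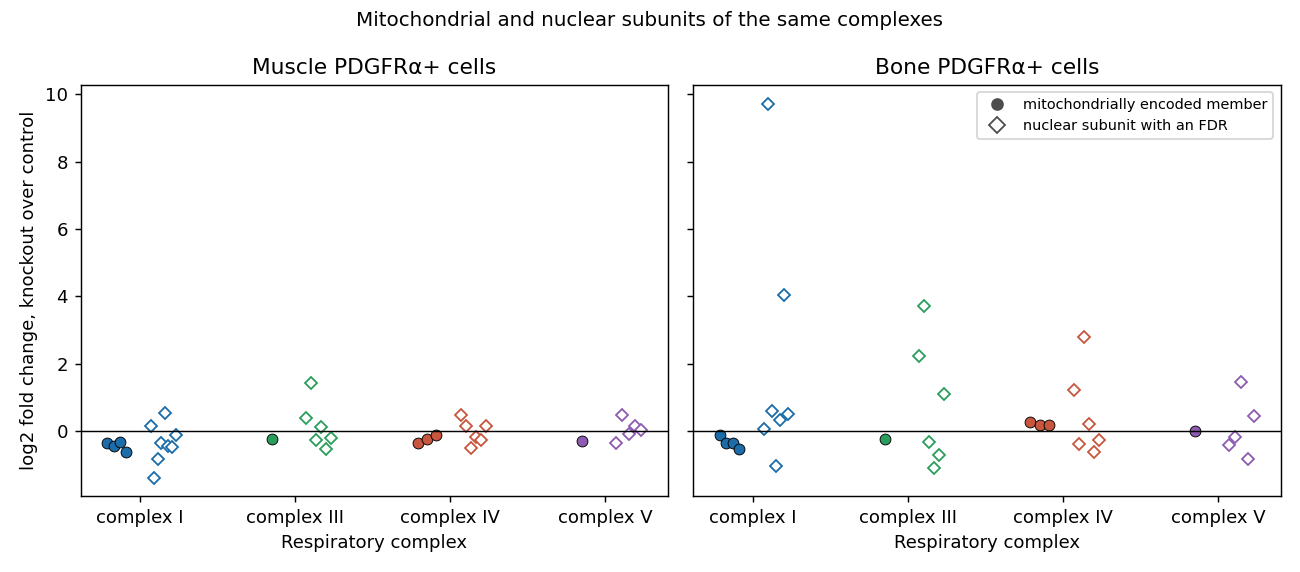
The log2 fold change of knockout over control is plotted by complex for the mitochondrially encoded members (filled circles) and the nuclear subunits that had an FDR (open diamonds). The members span -0.60 to -0.10 in muscle and -0.51 to 0.27 in bone, and the nuclear subunits -1.37 to 1.43 and -1.10 to 9.72.

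Factors that make, process and stabilise mitochondrial RNA were expressed at lower levels than the transcripts themselves, the most abundant being Slirp at 163 in muscle and 44.8 in bone. Of 25 such genes, 9 had an FDR in muscle and none passed, with 6 below 0 and a median of -0.97. Of all genes with an FDR in muscle, 48.5% were below 0 and the median was 0.03. The mitochondrial packaging and transcription factor Tfam had -1.36 in the authors' deposited table for muscle (p = 0.223), at a larger group mean of 47.1. The RNA chaperone Slirp, which stabilises mitochondrial mRNA with Lrpprc, had -0.04 in the authors' deposited table (p = 0.944). The smallest p values belonged to genes without an FDR: Fastkd3 (-6.48, p = 0.00450), Supv3l1 (-8.30, p = 0.00672) and Fastkd5 (-6.51, p = 0.00700) in the authors' deposited table. With levels between 14.5 and 15.1, these sizes too are no estimates. The mitochondrial RNA polymerase gene Polrmt had 7.42 in the authors' deposited table (p = 0.0278) at a larger group mean of 7.90, so its size is no estimate either.

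In bone, 13 of the 25 had an FDR, none passed, and 1 was below 0, with a median of 2.39. Of all genes with an FDR in bone, 32.6% were below 0 and the median was 1.46. The authors' deposited table for bone listed Slirp at 10.73 (p = 0.00100, FDR = 0.0784), with a level of 44.8, and Tfam at 8.80 (p = 0.00702), with 9.65. The termination factor family gene Mterf4 had -8.09 in the authors' deposited table (p = 0.0133) at 17.5. With levels of 44.8 and below, these sizes are no estimates either. In bone 7 of the 25 genes were listed at 0, and in muscle 2 were. Of 7 genes for replication of mitochondrial DNA, 2 had an FDR in muscle and 4 in bone, and none passed. The gene of the catalytic polymerase subunit, Polg, had 7.67 in muscle (p = 0.0219, with no FDR) and 7.36 in bone (p = 0.0262, FDR = 0.0926) in the authors' deposited tables, where its levels were 9.42 and 5.15. At such levels the sizes of Polg are no estimates.

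Markers of blood cells and of mesenchymal cells were measured in the same comparisons. In muscle all 5 erythroid markers that had an FDR were below 0 (median -0.99), as were all 3 muscle fibre markers that had one (median -0.52). Among those without an FDR, Slc4a1 (5.31), Myh4 (0.62), Tnnt3 (1.18) and Mb (5.76) were above 0, and Myh1 (-2.00) was below. Their levels were low, with the highest at 12.3 for Tnnt3. The 8 mesenchymal markers had a median of 0.55, with 1 called higher and 1 below 0. Of all genes with an FDR in muscle, 48.5% were below 0, the median was 0.03 and 0.127% were called. In bone 5 of 6 erythroid markers were above 0 (median 0.91), as were 8 of 8 neutrophil markers (median 2.99, 1 called higher) and 6 of 6 macrophage and leukocyte markers (median 3.56). The 8 mesenchymal markers had a median of 0.19 there, with 3 below 0. Of all genes with an FDR in bone, 32.6% were below 0, the median was 1.46 and 0.0352% were called. The erythroid and mesenchymal medians were below that median, and the neutrophil and leukocyte medians were above it. The part of the cells these markers stand for in the values of the members was not tested.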

How the data were processed

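RNA of sorted PDGFRα+ cells was profiled with 3′ mRNA libraries (QuantSeq), per the labels' protocols. Each tissue has 1 deposited table. Per the file headers, the authors deposited a log2 fold change of knockout over control for each gene, with its p-value and that p-value adjusted by FDR and by Bonferroni. The larger group mean is a deposited score whose unit the headers do not name. Aligner, counter and test: not given in the sources used here. Builds in the submitters' processing notes are GRCm38 and mm10, and the mitochondrial coordinates equal GRCm38. Those of some nuclear genes do not, so no nuclear coordinate of the tables is used.

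The 48 columns of per-library values carry codes that match no label and were not used. The planned count tests, shares per library, depth and search for genes of like pattern were therefore not run, and the authors' comparison took their place. In muscle 7107 genes had an FDR and in bone 8534. Summed larger group means were 1150351 in muscle and 1171401 in bone.

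Genes were counted by sign and by an FDR under 0.05 with pandas 2.3.3 in Python 3.11.15. The Benjamini-Hochberg code was tested on simulated data. Nuclear copies were searched with blastn (BLAST 2.17.0) on both strands. Named were the 9 members, the 4 other mitochondrial protein genes, Esr1, Pdgfra and up to 4 genes of smallest p of each list. Cox6c and Cox7c, the most abundant nuclear subunits, and Tfam and Slirp in muscle were chosen after their values were seen. The members and lists were chosen with earlier results of these data known. Some genes of the lists are not reported here.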

Additional observations from a re-analysis of the deposited data

How the results depend on the processing

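The count of called members was 0 of 9 in both tissues at the authors' FDR, with a threshold of 0.1, with the authors' Bonferroni p, with the Benjamini-Hochberg adjustment over every gene with a p, and with it over genes at a larger group mean of at least 50. For the 13 mitochondrial protein genes, 78 such adjusted values were computed and 0 were under 0.05. Those by the 2 Benjamini-Hochberg alternatives ran from 0.415 to 0.967 in muscle and from 0.178 to 0.998 in bone. The share of the members moved from 7.09% to 7.12% in muscle and from 3.76% to 9.04% in bone without the globin genes. With all 13 genes it was 7.86% and 4.22%, and with the other 4 left out of the sum it was 7.15% and 3.78%.

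In alternatives chosen after seeing the data, 9 of 9 members stayed below 0 in muscle after recentring on the median of all genes with an FDR or of nuclear genes at 1000 or more, and 13 of 13 genes were below 0. In bone the count went from 5 to 9 under both recentrings, and 8 of all 13 genes were below 0. Other normalization, filters on counts, library sizes without mitochondrial genes and leaving out replicates were not run, as they need library values assigned to samples. No paired analysis was possible because the columns carry no replicate numbers. Depth per sample is unknown here, so the smallest detectable change is too, and a p that misses the threshold does not show that the members did not change.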
